A study of Mus musculus with 2 samples.

Results

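Il4i1, Ido1, Ido2, Kmo, Kynu, Ahr, Ahrr and Arg2 code for enzymes that break down tryptophan, phenylalanine or arginine and for the aryl hydrocarbon receptor (AHR) and its repressor. They were picked by gene symbol, and all 8 had a row in both deposited matrices, out of 31053 genes. The matrices hold single-cell RNA counts of dendritic cells from the spleens of naive mice, 7 to 9 weeks old, of the genotype Il7r-cre; Rosa26-lsl-tdTomato, enriched for the integrin CD11c with magnetic beads and then sorted by tdTomato. The tdTomato-positive cells are called L-cDC and the tdTomato-negative cells M-cDC, with 1 library each. Both groups carry both alleles. In such mice the Cre recombinase made from the Il7r locus removes a stop cassette in front of tdTomato, so that a cell and all its descendants stay labelled once Il7r has been expressed. The label therefore records a history of the locus, and a cell without it need not lack that history if the cassette was not removed. How many mice gave cells to each library is not given in the sources used here. With 1 library a group no difference could be set against replicates, no test was made, and every interval given here covers counting error only.

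After filtering, 3943 L-cDC and 5600 M-cDC cells were kept, with medians of 8573 UMIs in L-cDC and 7663.5 in M-cDC (unique molecular identifiers, each a counted transcript). The kept cells held 4 barcodes that occur in both libraries. Clustering of all kept cells together gave 19 clusters. Clusters 0, 2, 4, 7 and 10 (1922 L-cDC and 2108 M-cDC cells) were called mature Ccr7+ dendritic cell-like (mature), cluster 16 (212 L-cDC and 751 M-cDC cells) was called cDC1-like, and clusters 5 and 6 (152 L-cDC and 966 M-cDC cells) were called cDC2-like, each from marker lists. Levels are UMIs summed over a class or cluster of 1 library, scaled so that all genes sum to 1000000 (CPM). Xcr1, the chemokine receptor of cDC1, stood at 516 CPM in L-cDC and 556 in M-cDC of the cDC1-like class, against at most 12.2 CPM in the mature and cDC2-like classes. Sirpa, a surface receptor of cDC2, stood at 256 CPM in L-cDC and 236 in M-cDC of the cDC2-like class. Ccr7, which directs migration of mature dendritic cells to T cell zones, stood at 1150 CPM in L-cDC and 1463 in M-cDC of the mature class, and at no more than 37.4 CPM in the others. Not all cells were dendritic. Cluster 9 was NK-like (197 L-cDC cells and 1 M-cDC cell), cluster 18 B-like (53 L-cDC cells and none in M-cDC), cluster 13 macrophage-like (52 L-cDC and 25 M-cDC cells), and clusters 14 and 17 were led by cell division genes. Several clusters kept no name, among them cluster 11 (635 L-cDC and 759 M-cDC cells, led by Pla2g7, Dnah2, Car2 and Cd1d1), cluster 15 (157 L-cDC and 106 M-cDC cells, led by Lyz2, Acp5 and Nid1), cluster 12 (196 L-cDC and 161 M-cDC cells, led by Cd209d and Tcf4) and cluster 1 (185 L-cDC and 423 M-cDC cells, led by Ryr3 and Mdk). Cluster 8 (106 L-cDC and 68 M-cDC cells, led by Ppp1r1a and Dnah2) also kept no name, with Ccr7 at 512 CPM in L-cDC and 467 in M-cDC. Cluster 11 carried Ccr7 at 1285 CPM in L-cDC and 1265 in M-cDC, and cluster 15 at 1405 CPM in L-cDC and 1311 in M-cDC. The mature marker list scored highest in both, with 0.806 in cluster 11 and 0.795 in cluster 15. No marker of that list was among the top 10 genes of either cluster, so neither took its name. In the mature class single landmark genes of other cells were low: Cd79a of B cells stood at 1.47 CPM in L-cDC and 0.0627 in M-cDC, Nkg7 of NK cells at 2.14 CPM in L-cDC and 0.0627 in M-cDC, and Cd3e of T cells at 0.672 CPM in L-cDC and 0.313 in M-cDC. Some markers on the fuller lists were higher. Above 10 CPM were 2 of 14 NK markers in each library, and 2 of 12 macrophage markers in L-cDC and 1 in M-cDC. Of 13 T cell markers 1 passed in L-cDC and none in M-cDC, and no B cell marker did. The 21 cDC2 markers summed to 646 CPM in L-cDC against 172 in M-cDC, and the 19 cDC1 markers to 584 CPM in L-cDC against 706 in M-cDC.

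Tryptophan is broken down along several routes. IDO1 and its relative IDO2 open the ring of tryptophan and feed the kynurenine pathway, in which KMO hydroxylates kynurenine and KYNU cleaves kynurenine or its hydroxylated form on the way to NAD. IL4I1 is a secreted oxidase that acts on phenylalanine, tyrosine and tryptophan and forms hydrogen peroxide, ammonia and keto acids. Kynurenine and products of IL4I1 can activate AHR, a transcription factor that waits in the cytoplasm in a chaperone complex and pairs in the nucleus with ARNT. AHRR competes with AHR for that partner and is itself an AHR target. ARG2 is the mitochondrial arginase, which turns arginine into ornithine and urea. Removal of tryptophan or arginine and the making of kynurenines are known ways in which dendritic cells restrain T cells, and Il4i1, Ido1 and Arg2 are often listed among the genes of regulatory mature dendritic cells.

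On GRCm38, with GENCODE vM21 gene models, Il4i1 lies at chr7:44816387-44840809 on the plus strand. Kmo lies at chr1:175620381-175662116 and Kynu at chr2:43555329-43682715, both on the plus strand. Ido1 at chr8:24584136-24597009 and Ido2 at chr8:24531892-24576333 lie side by side on the minus strand, 7802 bases apart. Ahr at chr12:35497974-35535038 and Ahrr at chr13:74211118-74292331 are on the minus strand, and Arg2 is on the plus strand at chr12:79130777-79156301. Of the members, 4 (Il4i1, Kmo, Ahr and Arg2) overlap a neighbour in the annotation, and whether the authors' counting used strand is not stated in the sources used here. Il4i1 shares 2 of its 20 annotated exon parts with Nup62 on the same strand and 15 with Tbc1d17 on the other strand. Nup62 stood at 45.6 CPM in L-cDC and 52.0 in M-cDC of the mature class, and Tbc1d17 at 23.3 CPM in L-cDC and 26.6 in M-cDC. The Kmo gene body overlaps Fh1, fumarate hydratase, on the other strand with no shared exon. Fh1 stood at 11.4 CPM in L-cDC and 10.1 in M-cDC of the mature class, at 48.5 CPM in L-cDC and 52.9 in M-cDC of the cDC1-like class and at 73.6 CPM in L-cDC and 74.4 in M-cDC of the cDC2-like class, the same order of classes as Kmo below. Whether the Kmo and Fh1 counts share reads was not tested. Arg2 shares 1 of its 8 exon parts with Vti1b, which stood at 75.7 CPM in L-cDC and 82.4 in M-cDC of the mature class and at 60.1 CPM in L-cDC and 58.0 in M-cDC of the cDC1-like class, where Arg2 had no UMI. Ahr shares 2 of 15 with Gm48236, which had at most 3 UMIs in any of the 3 classes and libraries.

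The window around a RefSeq start site (250 bases before it and 50 after) is held in the RefSeq promoter table, build GRCm38.p6, for 3 of the 8 members. They are printed because all 3 genes differ widely between mature and resting dendritic cells, as described below. The start sites used for Il4i1 and Kmo lie inside the GENCODE spans given above, downstream of the 5′ ends of those spans. That of Ahrr is at the 5′ end of its span. Il4i1 is at chr7:44836038-44836337 on the plus strand, Kmo at chr1:175631943-175632242 on the plus strand and Ahrr at chr13:74292282-74292581 on the minus strand, each read 5′ to 3′ on its own strand. Capitals mark GCGTG, the core of the AHR response element, and the NF-kB consensus.
Il4i1: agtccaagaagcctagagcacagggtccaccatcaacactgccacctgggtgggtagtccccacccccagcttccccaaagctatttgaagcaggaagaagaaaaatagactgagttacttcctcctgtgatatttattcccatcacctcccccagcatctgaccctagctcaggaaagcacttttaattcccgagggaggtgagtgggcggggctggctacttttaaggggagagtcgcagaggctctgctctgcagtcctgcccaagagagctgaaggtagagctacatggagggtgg
Kmo: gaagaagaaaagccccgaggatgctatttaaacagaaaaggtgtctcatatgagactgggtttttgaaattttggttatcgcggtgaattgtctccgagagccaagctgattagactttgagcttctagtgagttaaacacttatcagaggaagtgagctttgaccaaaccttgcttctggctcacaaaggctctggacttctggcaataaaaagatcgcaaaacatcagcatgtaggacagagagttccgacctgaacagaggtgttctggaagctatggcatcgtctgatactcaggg
Ahrr: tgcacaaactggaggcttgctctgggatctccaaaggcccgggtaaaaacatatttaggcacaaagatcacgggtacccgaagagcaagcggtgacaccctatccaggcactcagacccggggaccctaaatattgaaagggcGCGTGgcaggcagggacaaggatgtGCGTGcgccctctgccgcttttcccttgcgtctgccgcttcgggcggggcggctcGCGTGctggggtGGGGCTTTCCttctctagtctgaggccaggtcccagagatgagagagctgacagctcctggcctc
The Ahrr window holds GCGTG 3 times, at −107, −82 and −27 from the start site, the base before that site being −1. The third of these is also part of the longer form TNGCGTG, which begins at −29. It holds the NF-kB consensus once, at −15. The Il4i1 and Kmo windows hold none of the 3 motifs. The bases around the upstream GENCODE starts of Il4i1 and Kmo were not searched. On both strands, GCGTG is found in 10639 of 32851 promoter windows of this length (32.4%), TNGCGTG in 1664 (5.07%) and the NF-kB consensus in 1907 (5.80%), so a match to the short core alone is common. A match is a run of letters and not a shown binding site.

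Il4i1, the secreted amino acid oxidase, was high in mature cells and low in resting ones. Within the mature class it stood at 1535 CPM (95% interval 1516 to 1554) in L-cDC and at 1874 CPM (1852 to 1895) in M-cDC. In the cDC2-like class the levels were 148 CPM in L-cDC and 154 in M-cDC, and in the cDC1-like class 29.9 CPM in L-cDC and 24.1 in M-cDC. The mature class was thus 51.4-fold (42.5 to 62.8) above the cDC1-like class in L-cDC and 77.6-fold (68.7 to 88.1) in M-cDC, and 10.4-fold (L-cDC) and 12.1-fold (M-cDC) above the cDC2-like class. Over the 18 clusters of at least 50 cells, with both libraries summed, the level ran from 25.6 CPM in cDC1-like cluster 16 to 2484 CPM in cluster 15. Mature cluster 0 at 2123 CPM and cluster 11 at 2089 CPM came next and were not told apart by their intervals, nor were neighbours in the order of clusters 7 (1455 CPM), 8, 10 and 1 (1270 CPM), although the intervals of clusters 7 and 10 did not overlap. Among mature clusters the L-cDC-rich cluster 2 (355 L-cDC and 2 M-cDC cells, led by Clu, H2-M2 and Nrp2) was lowest, at 985 CPM. Cells were then thinned to 3000 UMIs each, which left out 321 L-cDC and 282 M-cDC cells. At that depth 90.6% of mature cells in L-cDC and 93.1% in M-cDC carried an Il4i1 UMI, against 95.1% in L-cDC and 97.6% in M-cDC at full depth. The thinned shares were 31.1% in L-cDC and 31.2% in M-cDC of the cDC2-like class, and 7.55% in L-cDC and 6.47% in M-cDC of the cDC1-like class. NK-like cells of L-cDC, taken as a gauge of free RNA, carried one in 18.3% of cells, and their level was 80.2 CPM. The cDC1-like share and level of L-cDC are below that gauge, which therefore cannot tell them from free RNA. Whether the NK-like cells carried Il4i1 RNA other than free RNA was not tested. M-cDC held 1 NK-like cell and has no gauge of its own. The B-like cells of L-cDC stood at 428 CPM, with a UMI in 53.8% of thinned cells.

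Ido1, a tryptophan-opening dioxygenase, was highest in cluster 11, one group of Ccr7-bearing cells. There it stood at 51.8 CPM in L-cDC and 53.6 in M-cDC. Mature cluster 0, led by Mir155hg, Cd1d1 and Ccl22, followed at 30.8 CPM in L-cDC and 25.8 in M-cDC. Below it came cluster 8 (25.3 CPM in L-cDC and 23.5 in M-cDC), cluster 15 (18.3 in L-cDC and 18.8 in M-cDC) and cluster 7 (21.5 in L-cDC and 11.4 in M-cDC). Each of these 3 rests on at most 29 UMIs a library. Mature cluster 4, led by Ncoa7, Itgb8 and Aldh1a2, held only 5.30 CPM in L-cDC and 3.88 in M-cDC. Cluster 11 was 11.6-fold (7.91 to 17.7) above clusters 4 and 10 combined in L-cDC and 13.2-fold (9.62 to 18.4) in M-cDC. Cluster 11 alone held 50.1% of all Ido1 UMIs of the kept L-cDC cells and 57.7% of those of M-cDC. Even there, 13.1% of thinned cells in L-cDC and 13.5% in M-cDC had an Ido1 UMI, against 0 of 197 NK-like cells of L-cDC, where a count of 0 (floor of 3 counts) allows a share of up to 1.52%; M-cDC held 1 such cell and has no gauge of its own. In the cDC1-like class Ido1 had 2 UMIs in L-cDC and 5 in M-cDC, and in the cDC2-like class 1 in L-cDC and 2 in M-cDC, which is too few to set a level. The mature class was 23.1-fold (6.31 to 192) above the cDC1-like class in L-cDC and 21.9-fold (9.21 to 68.4) in M-cDC. Ido2, its relative, was sparser, with 163 UMIs in all kept L-cDC cells and 175 in M-cDC, of which cluster 11 held 39.3% in L-cDC and 43.4% in M-cDC. It stood at 12.2 CPM in L-cDC and 14.7 in M-cDC of cluster 11, which was 4.42-fold (L-cDC) and 3.95-fold (M-cDC) above clusters 4 and 10. In cluster 7, a shallow mature cluster with median UMIs of 1983.5 in L-cDC and 1826 in M-cDC, it stood at 19.1 CPM in L-cDC and 11.4 in M-cDC from 8 UMIs and 2 UMIs, and the intervals of clusters 7 and 11 overlapped.

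Kmo, the kynurenine hydroxylase, was low in the mature class and higher in both resting ones, the reverse of Il4i1. The mature class held 25 Kmo UMIs in L-cDC and 20 in M-cDC, which are 1.53 CPM in L-cDC and 1.25 in M-cDC. The cDC2-like class stood at 103 CPM in L-cDC and 91.0 in M-cDC, and the cDC1-like class at 50.2 CPM in L-cDC and 53.3 in M-cDC. The mature level was 67.2-fold (43.9 to 107) below the cDC2-like class in L-cDC and 72.6-fold (46.7 to 120) in M-cDC, and 32.9-fold (L-cDC) and 42.5-fold (M-cDC) below the cDC1-like class. Cluster 12 had the highest level, 161 CPM in L-cDC and 168 in M-cDC. It was above the cDC2-like class in both genes, 1.57-fold (L-cDC) and 1.85-fold (M-cDC) for Kmo and 4.92-fold (L-cDC) and 3.11-fold (M-cDC) for Il4i1. Over 18 clusters with both libraries summed, cluster 12 (164 CPM) came before cDC2-like clusters 5 (95.8 CPM) and 6 (88.1 CPM), which were not told apart, and then dividing cluster 14 and cDC1-like cluster 16. Thinned cells with a Kmo UMI made up 0.417% of mature cells in L-cDC and 0.458% in M-cDC, close to the 0.508% of NK-like cells, but 28.5% of cDC2-like cells in L-cDC and 24.1% in M-cDC. Of 15 plasmacytoid dendritic cell markers, cluster 12 held all 15 above 10 CPM in L-cDC and 11 in M-cDC. Of 21 cDC2 markers it held 16 above 10 CPM in each library. The cDC2 markers summed to 5275 CPM in L-cDC and 5501 in M-cDC, and the plasmacytoid ones to 2601 CPM in L-cDC and 1800 in M-cDC. The cluster kept no name.

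Kynu, the kynureninase, did not follow either pattern. In the mature class it stood at 41.5 CPM in L-cDC and 38.4 in M-cDC, that is 1.002-fold (L-cDC) and 0.984-fold (M-cDC) of the cDC1-like class (41.4 CPM in L-cDC and 39.0 in M-cDC). The cDC2-like class was higher, at 86.5 CPM in L-cDC and 73.8 in M-cDC. Among the Ccr7-bearing clusters Kynu, like Ido1, was higher in clusters 11 and 0 than in clusters 4 and 10: 89.4 CPM in L-cDC and 88.0 in M-cDC of cluster 11, and 69.3 CPM in L-cDC and 66.3 in M-cDC of cluster 0, against 23.2 CPM in L-cDC and 29.1 in M-cDC of cluster 4. In cluster 10 it stood at 20.5 CPM in L-cDC and 17.1 in M-cDC. Cluster 11 was 3.96-fold above clusters 4 and 10 in L-cDC and 3.29-fold in M-cDC. The order over 18 clusters was flat at the top, where clusters 1, 12, 7, 15, 11 and 5 ran from 108 to 81.0 CPM with every neighbouring pair overlapping, and the lowest was the NK-like cluster at 4.52 CPM.

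**Figure D1:**
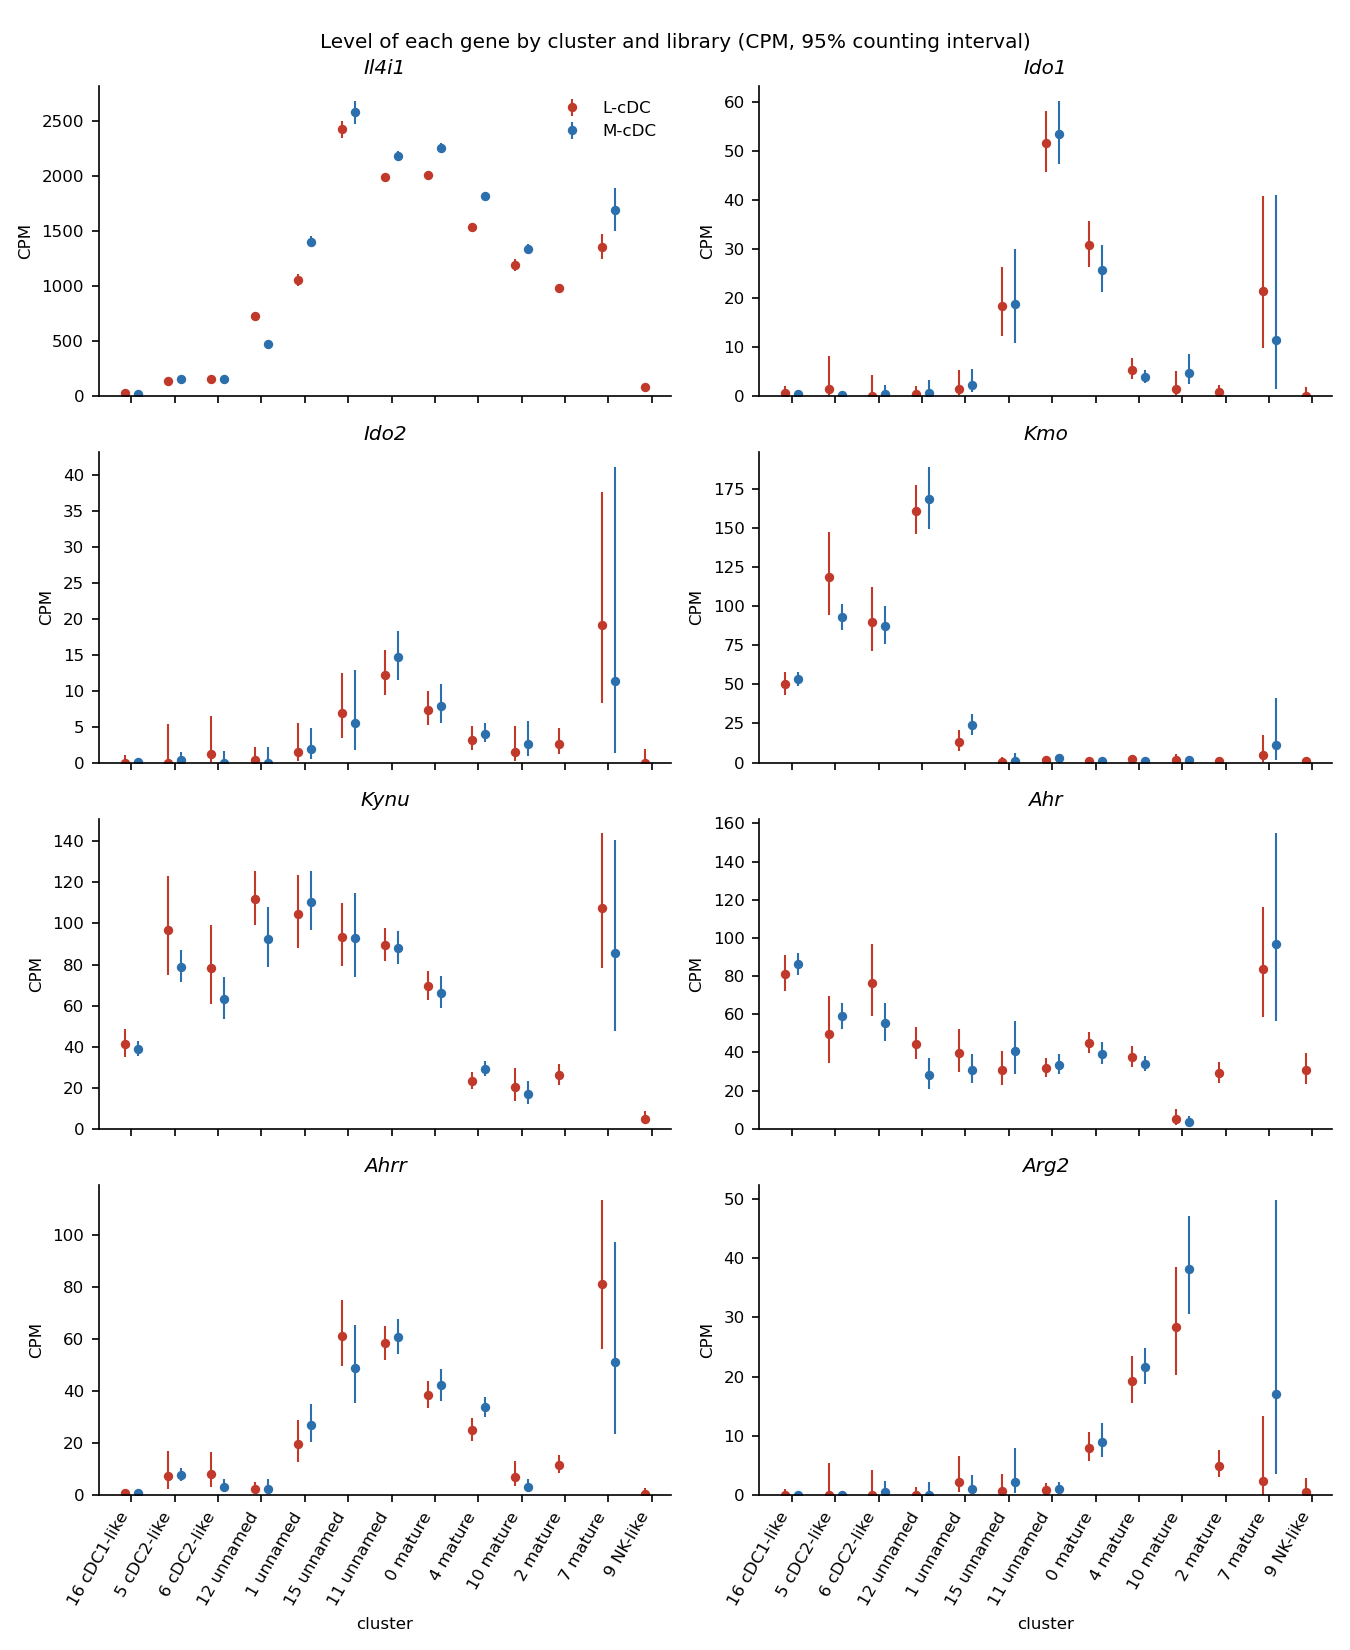
Level of each of the 8 genes (CPM, linear axis from 0) in 13 clusters, with L-cDC in red left of M-cDC in blue and bars for the 95% counting interval; clusters with fewer than 50 cells in a library have no point. Il4i1 is high in the mature clusters and in clusters 11 and 15, Ahrr in clusters 7, 11 and 15, Kmo in the resting clusters and cluster 12, Ido1 in cluster 11 and Arg2 in clusters 10 and 4.

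Ahr, the ligand-sensing receptor, was lower in the mature class than in the resting ones, whereas Ahrr, its repressor, was higher. The mature class held 36.5 CPM of Ahr in L-cDC and 31.8 in M-cDC. The cDC1-like class stood at 81.2 CPM in L-cDC and 86.2 in M-cDC, and the cDC2-like class at 64.5 CPM in L-cDC and 57.9 in M-cDC. The mature level was thus 0.450-fold (L-cDC) and 0.369-fold (M-cDC) of the cDC1-like level. At 3000 UMIs a cell, an Ahr UMI was found in 8.27% of mature cells in L-cDC and 7.33% in M-cDC, and in 20.3% of cDC1-like cells in L-cDC and 20.6% in M-cDC. It was found in 10.2% of the NK-like cells of L-cDC, which cannot serve as a gauge of free RNA here because NK cells can express Ahr. The B-like cells of L-cDC had none in 52 cells, which allows a share of up to 5.77%, and mature cluster 10 had one in 1.44% of cells in L-cDC and 1.04% in M-cDC. Ahrr stood at 26.3 CPM in L-cDC and 31.8 in M-cDC of the mature class. The cDC1-like class held 3 Ahrr UMIs in L-cDC and 10 in M-cDC, 0.846 CPM in L-cDC and 0.932 in M-cDC, so the mature class was 31.1-fold (10.6 to 151) higher in L-cDC and 34.2-fold (18.4 to 71.7) in M-cDC. Against the cDC2-like class (7.74 CPM in L-cDC and 6.23 in M-cDC) it was 3.39-fold (L-cDC) and 5.11-fold (M-cDC) higher. Cluster 11 had 58.3 CPM of Ahrr in L-cDC and 60.8 in M-cDC, 2.77-fold (L-cDC) and 2.21-fold (M-cDC) above clusters 4 and 10, with an Ahrr UMI in 16.3% of thinned cells in L-cDC and 15.8% in M-cDC, and in none of the NK-like cells.

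Within the mature class both genes were lowest in cluster 10, which is led by Txndc17, Aldh1a2 and Mt1. Ahr stood there at 4.95 CPM in L-cDC and 3.51 in M-cDC, 7.61-fold (3.62 to 19.2) in L-cDC and 9.65-fold (4.84 to 22.6) in M-cDC below cluster 4. Ahrr was 3.52-fold below cluster 4 in L-cDC and 10.95-fold in M-cDC, and at 7.07 CPM in L-cDC and 3.07 in M-cDC it was no higher than in the cDC2-like class. Measures of RNA quality moved with this result. Malat1, a nuclear noncoding RNA, stood at 2382 CPM in L-cDC and 1554 in M-cDC of cluster 10, against 131290 CPM in L-cDC and 126248 in M-cDC of cluster 4. Cluster 10 also had fewer genes a cell, with medians of 1189 in L-cDC and 1259.5 in M-cDC against 2387 in L-cDC and 2182 in M-cDC of cluster 4. Cluster 8 was low in Ahr as well, at 9.05 CPM in L-cDC and 11.8 in M-cDC, with Malat1 at 4104 CPM in L-cDC and 4632 in M-cDC. Cluster 7 was at the other end, with Malat1 at 313349 CPM in L-cDC and 335673 in M-cDC and the highest summed Ahr (87.6 CPM) and Ahrr (72.4 CPM) of the 18 clusters, although the intervals overlapped those of cluster 16 for Ahr and of clusters 11 and 15 for Ahrr. In the cDC1-like class Malat1 stood at 27494 CPM in L-cDC and 28326 in M-cDC. The part of nuclear RNA content in the Ahr and Ahrr levels of these clusters and of the cDC1-like class was not tested.

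Arg2, the mitochondrial arginase, was highest in other Ccr7-bearing clusters than Ido1. It was highest in cluster 10, at 28.3 CPM in L-cDC and 38.2 in M-cDC, and next in cluster 4, at 19.2 CPM in L-cDC and 21.6 in M-cDC. Both clusters are led in part by Aldh1a2 or Itgb8, genes of retinoic acid synthesis and TGF-beta activation. Mature cluster 0, which also held Ido1, had Arg2 at 7.88 CPM in L-cDC and 8.96 in M-cDC. Cluster 11 held 0.764 CPM in L-cDC and 0.964 in M-cDC, 27.7-fold (10.6 to 103) in L-cDC and 25.9-fold (10.95 to 80.3) in M-cDC below clusters 4 and 10. In the resting classes Arg2 was at or near 0, with 0 UMIs in the cDC1-like cells of both libraries and 0 in L-cDC and 1 in M-cDC of the cDC2-like cells. Taking the floor of 3 counts a library, the mature class was at least 14.6-fold higher than the cDC1-like class in L-cDC and at least 72.9-fold in M-cDC. The mature class held 94.0% of all Arg2 UMIs of kept L-cDC cells (202 of 215) and 95.3% of those of M-cDC (325 of 341). At 3000 UMIs a cell, 8.17% of cluster 10 cells in L-cDC and 10.7% in M-cDC had one, and 0 of 197 NK-like cells did. Cluster 10 over cluster 4 was 1.47-fold (0.992 to 2.15) in L-cDC, an interval that holds 1, and 1.77-fold (1.36 to 2.29) in M-cDC. The part of nuclear RNA content in this difference was not tested.

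Between L-cDC and M-cDC most members differed little within a class. A gene was considered where 1 of the libraries reached 20 CPM and both together held 50 UMIs or more, and it was called where L-cDC over M-cDC passed 1.5-fold either way. In the mature class 5 of the 8 members were considered, since Ido1, Ido2 and Kmo were under 20 CPM, and 1 was called, Arg2, against 172 of all 4399 genes considered (3.91%). Their median log2 ratio was -0.28, beside -0.03 over all considered genes. In the cDC1-like class 4 members (Il4i1, Kmo, Kynu and Ahr) were considered and none was called, against 1.07% of all genes. In the cDC2-like class the same 4 were considered and none was called, against 9.25%, with a median log2 ratio of 0.16 beside -0.06 over all considered genes. Inside single clusters none of the considered members was called in cluster 0 (background 1.1%), cluster 4 (0.412%), cluster 10 (5.38%), cluster 11 (0.976%) and cluster 15 (6.87%). In cluster 1 (15.5%) 1 of 5 was called and in cluster 12 (11.9%) 2 of 4 were.

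The Arg2 call in the mature class rested on 202 UMIs in 155 L-cDC cells and 325 UMIs in 243 M-cDC cells, or 12.3 CPM in L-cDC against 20.4 CPM in M-cDC, a ratio of 0.606 (0.506 to 0.724). The libraries also differed in which mature clusters they held. Clusters 4 and 10, where Arg2 is highest, made up 39.1% of mature L-cDC cells and 67.0% of mature M-cDC cells, and cluster 2, which had 4.92 CPM of Arg2 in L-cDC, made up 18.5% in L-cDC and 0.0949% in M-cDC. Within cluster 4 the ratio was 0.890 (0.691 to 1.14), and within cluster 10 it was 0.741 (0.496 to 1.09), both inside 1.5-fold and with intervals that hold 1. Without cluster 2 the ratio over the class was 0.717 and was not called, and with cells put into classes by marker means it was 0.648 but the level was under 20 CPM and was not considered. In bulk sums over a class, fewer cells of one cluster and less RNA per cell cannot be told apart, and the values within clusters stand beside the class value for that reason.

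Il4i1 was lower in L-cDC than in M-cDC of the mature class by less than the 1.5-fold rule, with a ratio of 0.819 (0.806 to 0.833). The same direction was seen inside clusters 0 (0.890), 4 (0.843), 7 (0.802), 10 (0.891), 11 (0.910) and 15 (0.940), all inside 1.5-fold. It was also seen in unnamed cluster 1, at 0.749 (0.702 to 0.799), and in cDC2-like cluster 5, at 0.876, both inside 1.5-fold. Clusters 6 (1.03), 8 (1.10), 12 and 16 (1.24) went the other way. The intervals of clusters 5, 6, 8 and 16 held 1. The narrow intervals reflect the number of UMIs and not replicates. Ahrr had a ratio of 0.825 (0.724 to 0.940) and Ahr one of 1.15 (1.02 to 1.30) in the mature class. The interval of Kynu held 1 there (1.08, 0.968 to 1.21). Ido1, with 13.01 CPM in L-cDC against 10.2 CPM in M-cDC, had too low a level in the mature class to be considered. In cluster 11, where it was considered, its ratio was 0.966 (0.814 to 1.15). In the cDC1-like class the intervals of all 4 considered members held 1: Il4i1 1.24 (0.979 to 1.56), Kmo 0.942 (0.791 to 1.12), Kynu 1.06 (0.874 to 1.28) and Ahr 0.942 (0.823 to 1.08). They also held 1 for the 4 in the cDC2-like class, where Il4i1 had a ratio of 0.957 (0.826 to 1.10) and Kmo one of 1.13 (0.942 to 1.34). The Il4i1 value of that class depends on where cluster 12 is put: counted as cDC2-like, it took the ratio to 2.36, past 1.5-fold. In the cDC1-like class the Il4i1 ratio was 0.565 with doublet-like cells kept and 1.54 with classes from marker means, past 1.5-fold in opposite directions.

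Differences past 1.5-fold were also found in unnamed clusters 12 and 1. In cluster 12 Il4i1 stood at 727 CPM in L-cDC against 480 CPM in M-cDC, a ratio of 1.52 (1.40 to 1.65), and Ahr at 44.3 CPM in L-cDC against 28.1 in M-cDC, 1.57 (1.11 to 2.25), which was 1.46 and inside 1.5-fold after thinning. Kmo at 161 CPM in L-cDC and 168 in M-cDC and Kynu at 112 CPM in L-cDC and 92.6 in M-cDC were inside 1.5-fold there. Markers of maturation moved in the same direction in cluster 12: Ccr7 stood at 53.6 CPM in L-cDC against 32.2 CPM in M-cDC and Fscn1, the actin-bundling protein of mature dendritic cells, at 237 CPM in L-cDC against 112 in M-cDC. Their part in the Il4i1 and Ahr differences was not tested. In cluster 1 Kmo stood at 12.8 CPM from 17 UMIs in L-cDC against 23.7 CPM from 50 UMIs in M-cDC, a ratio of 0.539 (0.292 to 0.951), and thinning took it to 0.176. Summed over all kept cells the libraries show their makeup as well as their levels: Kmo stood at 23.6 CPM in L-cDC against 37.7 CPM in M-cDC, in which resting cDC1-like and cDC2-like cells were a larger part, and Il4i1 at 1221 CPM in L-cDC against 1029 in M-cDC.

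**Figure D2:**
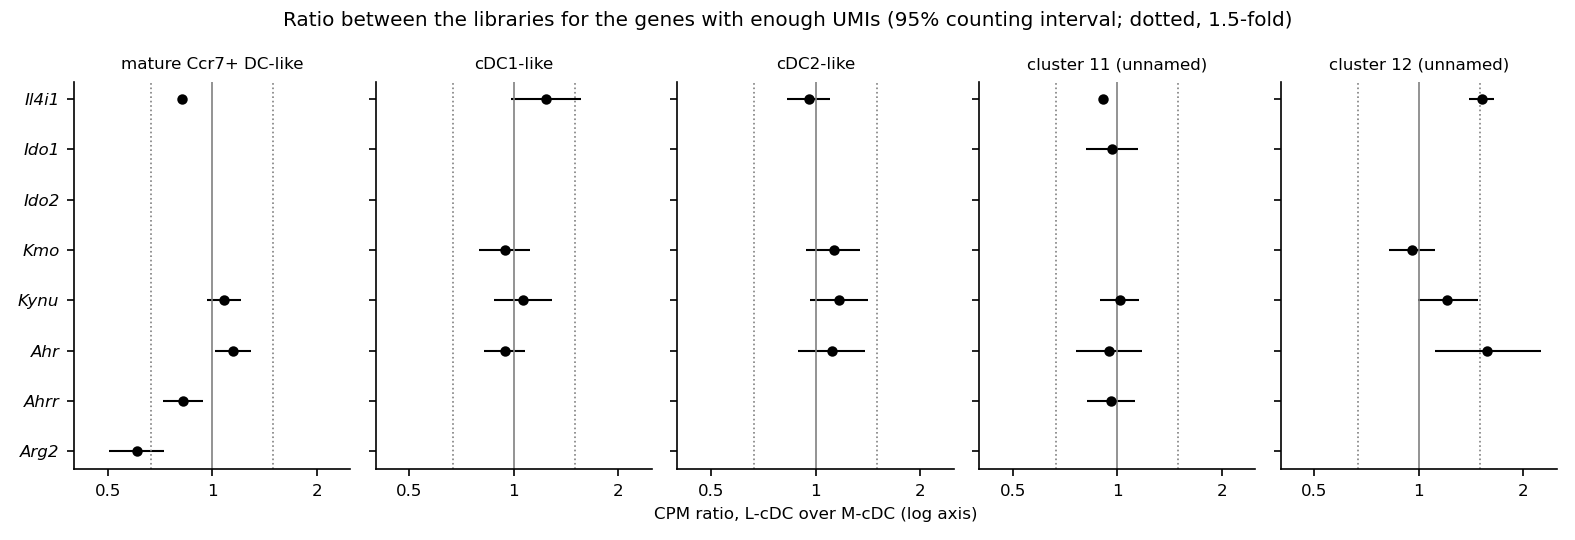
Ratio of CPM in L-cDC over M-cDC (log axis) for the members with enough UMIs in the 3 classes and in clusters 11 and 12, with 95% counting intervals; the solid line is 1 and the dotted lines are 1.5-fold. Points past a dotted line are Arg2 in the mature class and Il4i1 and Ahr in cluster 12.

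The cells were also split by a single transcript, Ccr7, which needs no clusters. Of the thinned cells, 2477 in L-cDC and 2995 in M-cDC had a Ccr7 UMI, and 1145 in L-cDC and 2323 in M-cDC had none. Il4i1 was found in 91.6% of cells with Ccr7 against 47.1% without it in L-cDC, and in 93.3% against 30.7% in M-cDC. Ahrr was found in 9.77% against 3.06% in L-cDC and in 9.85% against 2.15% in M-cDC. Ido1 was found in 5.85% against 1.31% in L-cDC and in 5.44% against 0.689% in M-cDC, Ido2 in 1.82% against 0.611% in L-cDC and in 2.24% against 0.301% in M-cDC, and Arg2 in 2.42% against 0.611% in L-cDC and in 3.77% against 0.387% in M-cDC. Kmo went the other way, with 0.686% of cells with Ccr7 against 11.7% of those without it in L-cDC, and 1.47% against 18.8% in M-cDC. Ahr was found in 8.44% against 11.004% in L-cDC and in 7.95% against 13.9% in M-cDC. Kynu was nearly level, at 15.2% against 13.5% in L-cDC and at 14.96% against 17.3% in M-cDC, with the higher share on opposite sides in the libraries. Since some Ccr7-expressing cells have no Ccr7 UMI at this depth, the cells without it still include mature ones. Within the mature class Il4i1 was found in 91.1% of cells with a Ccr7 UMI against 87.1% without it in L-cDC, and in 93.6% against 84.6% in M-cDC.

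**Figure D3:**
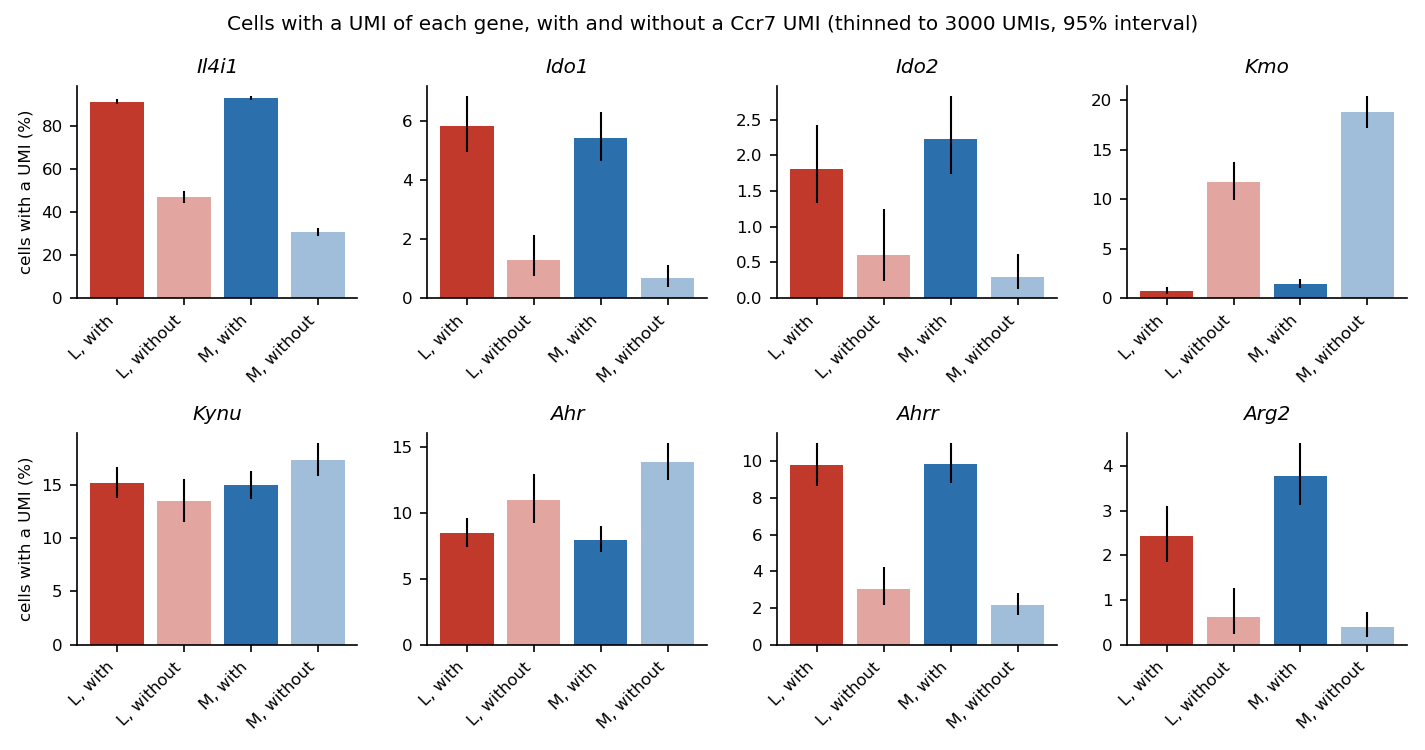
Share of cells with a UMI of each gene (%, axes from 0) after thinning to 3000 UMIs, for cells with a Ccr7 UMI (full colour) and without one (pale) in L-cDC (red) and M-cDC (blue), with 95% Clopper-Pearson intervals. Il4i1, Ido1, Ido2, Ahrr and Arg2 are found more often in cells with Ccr7 in both libraries, and Kmo and Ahr less often.

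Members were also compared across 30 profiles, each 1 cluster of at least 50 cells in 1 library (16 of L-cDC and 14 of M-cDC), as log2(CPM + 1). These profiles share libraries, clusters and the cells that were clustered, so the correlations are descriptions. Ido1 and Ido2 had a Pearson r of 0.866, Ido2 and Ahrr 0.850, and Il4i1 and Ahrr 0.801, while Kmo had -0.64 with Il4i1 and -0.65 with Arg2. Ahr and Ahrr had an r of 0.07. Ido1 and Arg2 had one of 0.286, with 0.159 over the L-cDC profiles and 0.423 over the M-cDC profiles. By the same measure, the genes most like Il4i1 among 8042 were Samsn1 (0.976), Relb (0.952), Anxa3 (0.948), Tmem123 (0.947) and Fscn1 (0.942), all of them on the list of mature markers used to name clusters. Those most like Kmo were Cd300c2 (0.949), Alox5ap, Wdfy4, Plbd1 and Cfp. Those most like Ido1 were Dnah2 (0.913), Cd1d1 (0.892), N4bp2l1, Glycam1 and Syngr3, of which Dnah2 and Cd1d1 are leading genes of cluster 11. Birc2 (0.925) came first for Ahrr, Stx16 (0.899) for Ahr, Ly86 (0.910) for Kynu and Psmd11 (0.876) for Arg2, with Itgb8 also among the 5 for Arg2. Ido2 had no profile of 20 CPM and was not ranked.

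Pairs of members were also counted in single cells. In cluster 11 at 3000 UMIs a cell, Ido1 and Ido2 were found together in 8 L-cDC cells and 9 M-cDC cells, where the product of their shares gives 3.28 in L-cDC and 4.33 in M-cDC. Ido1 and Ahrr were found together in 17 L-cDC cells, against a product of 13.5, and in 24 M-cDC cells, against 15.95. In the mature class Ido1 and Arg2 were found together in 1 cell of each library, against products of 2.21 in L-cDC and 3.63 in M-cDC. That class joins clusters high in Ido1 with clusters high in Arg2. Within cluster 0 the pair was found in 1 L-cDC cell, against a product of 1.06, and in 0 M-cDC cells, against 0.99. Within cluster 4 it was found in 0 L-cDC cells, against 0.279, and in 1 M-cDC cell, against 0.797. Cluster 10 had 0 in each library, against 0.163 in L-cDC and 0.749 in M-cDC. The part of this mix of clusters in the low counts of the class was not tested. Only some pairs are named here. Within cluster 11, 11 of 17 L-cDC pairs and 12 of 18 M-cDC pairs lay above their product. For the mature class it was 12 of 20 L-cDC pairs and 14 of 22 M-cDC pairs. The counts of the named pairs rest on few cells and carry no test.

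Around the members, 8 lists of genes of the same pathways were followed with the same rule. In the mature class none of the considered genes was called among the other kynurenine and NAD enzymes (1 of 20 measured genes considered), the AHR complex and its partners (12 of 16), the other amino acid enzymes (8 of 24) and the amino acid shortage response (7 of 15), against the 3.91% of all genes. The median log2 ratios of the 8 lists in this class lay between -0.61, for the 2 considered AHR targets, and 0.06, beside -0.03 over all considered genes. Among AHR target genes 2 of 24 were considered and 1 was called, Scin, an actin-severing protein, at 40.1 CPM in L-cDC against 69.1 CPM in M-cDC. Among transporters 3 of 14 were considered and 1 was called, Slc7a11, the cystine-glutamate exchanger, at 131 CPM in L-cDC against 81.5 in M-cDC. Among regulators of Ido1 and Il4i1, 19 of 26 were considered and 1 was called, the adaptor Tyrobp, at 584 CPM in L-cDC against 389 in M-cDC. The regulatory program of mature dendritic cells had 19 of 26 considered, with 1 called higher and 3 called lower in L-cDC. Ccl17, a chemokine for CCR4-bearing T cells, was higher, at 184 CPM in L-cDC against 84.0 CPM in M-cDC. The lower ones were Il12b, a subunit of IL-12, at 27.1 CPM in L-cDC against 48.3 in M-cDC, Pdcd1lg2, a ligand of PD-1, at 50.9 CPM in L-cDC against 81.0 in M-cDC, and Aldh1a2, a retinal dehydrogenase, at 308 CPM in L-cDC against 489 in M-cDC. Aldh1a2 leads clusters 4 and 10, whose shares of the mature class differ between the libraries as given above. Ccl17 is among the leading genes of cluster 2, which held 355 L-cDC and 2 M-cDC cells. The part of these cluster shares in the called genes of the 8 lists was not tested.

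In the cDC1-like class no gene of any list was called. In the cDC2-like class, with 9.25% of all genes called, Bin1, a reported regulator of Ido1, stood at 61.9 CPM in L-cDC against 111 CPM in M-cDC. Slc3a2, the heavy chain of amino acid transporters, stood at 81.3 CPM in L-cDC against 142 in M-cDC. In the shortage response Ppp1r15a stood at 45.2 CPM in L-cDC against 80.5 in M-cDC and Atf3 at 29.7 CPM in L-cDC against 18.4 in M-cDC. Ccr7 at 37.4 CPM in L-cDC against 16.1 in M-cDC, Fscn1 at 136 CPM in L-cDC against 51.5 in M-cDC and Ccl22 at 25.8 CPM in L-cDC against 5.69 in M-cDC were higher in L-cDC of that class, and Pdcd1lg2, at 13.6 CPM in L-cDC against 24.4 in M-cDC, was lower. The Ccl22 value and that of the AHR target Il22ra2 (25.8 CPM in L-cDC against 2.44 in M-cDC) rest largely on single cells, since 1 cell held 45% of the L-cDC UMIs of Ccl22 and 100% of those of Il22ra2. For Ccr7 1 L-cDC cell held 24.1% of the UMIs, and for Fscn1 14.2%. Ccr7 stood at 13.2 CPM in L-cDC and 12.7 in M-cDC of cluster 5, and at 56.5 CPM in L-cDC and 23.6 in M-cDC of cluster 6. Fscn1 was higher in L-cDC of both clusters. Cluster 6 gave 70 of the 152 L-cDC cells and 254 of the 966 M-cDC cells of the class.

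Levels of the pathway partners between classes, named here after their values were seen, place the members in context. Haao, the enzyme after KYNU on the way to NAD, stood at 30.2 CPM in L-cDC and 28.4 in M-cDC of cluster 11, against 12.3 CPM in L-cDC and 10.3 in M-cDC of the mature class. Relb, an NF-kB subunit that can pair with AHR, stood at 836 CPM in L-cDC and 861 in M-cDC of the mature class and at 50.5 CPM in L-cDC and 51.0 in M-cDC of the cDC1-like class. Ifngr1, a chain of the interferon gamma receptor upstream of Ido1, ran the other way, with 30.2 CPM in L-cDC and 32.5 in M-cDC of the mature class and 396 CPM in L-cDC and 449 in M-cDC of the cDC1-like class. Of the AHR targets of other tissues, Scin was found in the mature class at the levels given above. Cyp1b1 had 5 UMIs in the mature class of L-cDC and none in M-cDC, and Tiparp, a feedback inhibitor of AHR, stood at 11.2 CPM in L-cDC and 15.04 in M-cDC of the mature class, against 24.2 CPM in L-cDC and 20.5 in M-cDC of the cDC1-like class. Arg1, the cytosolic arginase, had 3 UMIs in L-cDC and 2 in M-cDC of the mature class.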

How the data were processed

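Droplet 3′ RNA libraries of L-cDC and M-cDC had been deposited by the authors as raw UMI counts per gene and barcode, which the file headers credit to Cell Ranger 6.1.2 and the submitters' processing notes to build GRCm38. The deposited libraries held 4939 and 6674 barcodes with 40170515 and 52973960 UMIs. Deposited columns of other content give gene names and barcodes.

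Barcodes with at least 500 genes and at most 10% mitochondrial UMIs were kept (4086 in L-cDC and 5848 in M-cDC). Scrublet (expected rate 0.08) set thresholds of 0.635 and 0.258, marking 3 L-cDC and 248 M-cDC cells. The lower one was used for both, chosen after both were seen, and removed 143 and 248 cells. All kept cells were scaled to 10000 UMIs and clustered jointly, with no batch integration, by Leiden at resolution 1 (2000 variable genes, 30 components, 15 neighbours). Il4i1, Ido1, Ido2 and Ahr were among the variable genes, so their cluster levels are not independent of the clusters. A cluster took the name of the best marker list with a score of at least 0.3, at least 3 markers above 10 CPM and 1 among its top 10 genes, provided no other list had as many there (cluster 12 tied and kept no name), a rule that was changed once its first names were known.

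Intervals are exact Poisson for CPM, exact conditional binomial for ratios and Clopper-Pearson for shares, all at 95%. Against a side with 0 counts, a floor of 3 was used. No test and no p-value was computed, as each group is 1 library. The members, gene lists and alternatives were chosen with earlier results of these data known. The text names all members, per list and class up to 4 called genes with the largest ratios whose interval leaves out 1, the 5 genes most like each member and landmark genes; others are said to be chosen after their values were seen, except leading genes of clusters, genes that overlap a member, Malat1 as a measure of RNA content and the maturation markers given beside cluster 12. The calculation was tested on simulated data. Clustering used scanpy 1.11.5, igraph 0.11.9 and scikit-learn 1.9.0, intervals scipy 1.17.1, and tables and figures pandas 2.3.3, numpy 2.4.6 and matplotlib 3.10.9, under Python 3.11.15.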

Additional observations from a re-analysis of the deposited data

How the results depend on the processing

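No paired analysis was possible because each group has 1 library, and for the same reason no replicate could be left out. The count of members past 1.5-fold in the mature class, 1 as reported, was 0 at Leiden resolution 0.5 (Arg2 ratio 0.806) and without cluster 2 (0.717), where Arg2 came inside 1.5-fold. It was also 0 with at least 200 genes a cell (0.620), at a minimum of 50 CPM (0.606), with classes from marker means (0.648) and with clusters 11 and 15 counted as mature (0.593), where Arg2 stayed past 1.5-fold but under the CPM minimum. With at least 1000 genes a cell it stayed 1, but the gene was Ido1 and the Arg2 ratio was 0.735. Arg2 was inside 1.5-fold under 3 of 19 alternatives. Its log2 ratio was below 0 under all 19, from -0.79 to -0.31, and so was that of Il4i1 in the mature class, from -0.42 to -0.13. In the cDC1-like class the count, 0 as reported, was 1 with marker means and with doublet-like cells kept. In the cDC2-like class, 0 as reported, it was 1 with cluster 12 counted as cDC2-like and with each library clustered alone. In all 4 cases the gene was Il4i1. Its cDC1-like log2 ratio was 0.62 with marker means and -0.82 with doublet-like cells, opposite in sign. For the calls in clusters 12 and 1, the 4 alternatives that keep the clusters were run, added after seeing the data: Il4i1 in cluster 12 stayed past 1.5-fold (log2 0.59 to 0.63), Ahr there came inside it after thinning (0.54), and Kmo in cluster 1 ran from -2.50 to -0.87. That lowest value was the thinned one, with a Kmo UMI in 2 L-cDC cells. The causes were not tested. Counts of all genes past 1.5-fold moved as follows. The mature count, 172 as reported, was 19 at resolution 0.5, 39 with at least 1000 genes a cell, 611 at 5 CPM, 79 at 50 CPM, 302 at 5% mitochondrial UMIs, 73 with marker means, 75 with clusters 11 and 15, 327 with doublet-like cells and 42 without cluster 2. The cDC1-like count, 51 as reported, was 89 without mitochondrial, ribosomal protein and immunoglobulin genes, 419 at 5 CPM, 11 at 50 CPM and 522 after thinning. The cDC2-like count, 498 as reported, was 1185 at 5 CPM, 158 at 50 CPM, 319 with doublet-like cells and 909 after thinning. The alternatives that move clusters 2, 7, 11, 12 and 15 or leave out shared barcodes were chosen after seeing the data.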
